A study of Mus musculus with 24 samples.

Results

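Chromatin accessibility was described at 10 genes of purinergic signalling in bone marrow-derived macrophages (BMDMs) with and without the aryl hydrocarbon receptor (AhR). The genes were the ectoenzymes Entpd1 and Nt5e, the adenosine receptors Adora2a, Adora2b and Adora3, the ion channels P2rx4 and P2rx7, and the G protein-coupled receptors P2ry6, P2ry12 and P2ry14. A consensus ATAC-seq peak was taken as a member when it overlapped the gene body or lay within 20 kb of it (GENCODE gene models, mm10), and each peak was given to the nearest of these genes. This gave 156 of the 184158 consensus peaks, of which 153 had enough counts to be tested. The 3 untested peaks belonged to Adora2a, P2rx7 and Nt5e. ATAC-seq marks open chromatin by the cuts of a transposase. Levels are given as CPM, the fragment count in a peak scaled to the library's normalised total (counts per M).

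The libraries came from 4 groups of 6, WT and AhR-KO cells that were each either unstimulated or treated with LPS. WT marrow was from C57/B6/J mice and AhR-KO marrow from mice with a germline Ahr allele (B6.129-Ahrtm1Bra/J), both sexes, so that every cell of the culture lacked the receptor. All marrow was differentiated with 10 ng/ml GM-CSF and 2 ng/ml TGF-β into cells that resemble alveolar macrophages. Cells of the LPS groups received this bacterial cell wall component at 97 EU/ml on day 6, were kept with it 24 h, and 5 µM calcium ionophore followed for 10 min. The labels attach this text to every library and do not say whether unstimulated cultures also received the ionophore. The study names 6 animals per group in 1 experiment, and whether a WT or AhR-KO animal gave both an unstimulated and an LPS culture is not stated.

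Adenosine triphosphate (ATP) that leaves stressed cells is a danger signal, and its breakdown product adenosine restrains inflammation. Entpd1 (CD39) cuts extracellular ATP and ADP down to AMP, Nt5e (CD73) turns AMP into adenosine, and the Adora receptors sense adenosine. P2X receptors are channels opened by ATP, P2Y receptors are G protein-coupled receptors for nucleotides and nucleotide sugars, and macrophages use both to detect damage and to move.

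Library totals lay between 8.54 and 34.6 M counts. In WT they averaged 30.6 ± 3.39 M (SD, n = 6) with LPS and 18.6 ± 5.62 M without. This difference had a two-sided exact permutation p of 0.00216, or 0.00866 after adjustment for 4 comparisons. In WT, totals therefore differed along with LPS. Among LPS-treated libraries they averaged 25.6 ± 2.27 M (SD, n = 6) for AhR-KO and 30.6 ± 3.39 M for WT (two-sided exact permutation p = 0.013, or 0.026 after adjustment for 4 comparisons), a difference of -6.14 to -4.24 M when single libraries were left out, and past the threshold no more without WT LPS replicate 1 or 3 or AhR-KO LPS replicate 4, 5 or 6. At the Ahr start the peak held 11.5 to 16.8 CPM in the 12 AhR-KO libraries and 19 to 24.6 CPM in the 12 WT libraries, with no overlap. The log2 fold change was -0.78 without LPS and -0.45 with LPS (edgeR adjusted p 2.98e-10 and 4.52e-06). Whether this peak overlaps the deleted part of the gene was not tested, so it is no check of the deletion itself. Of 8 macrophage markers, 7 had a tested peak over their start (Csf1r had none), with summed levels of 219 to 235 CPM in unstimulated WT, 244 to 317 in unstimulated AhR-KO, 172 to 188 in LPS-treated WT and 159 to 218 in LPS-treated AhR-KO. All 6 markers of alveolar-like macrophages had one, at 52.2 to 58.2, 68.1 to 84, 45.5 to 53.7 and 51.5 to 64.7 CPM in the same order. Of the T cell, B cell and fibroblast markers, 0 of 3 each had such a peak. The 3 dendritic cell markers summed to 25.7 to 34.5, 26.6 to 32.5, 28.3 to 45.2 and 20 to 25.9 CPM, 2 of 3 neutrophil markers (not Ly6g) to 19.8 to 26.1, 23.8 to 27.7, 13.8 to 21.1 and 16.4 to 18.9 CPM, and 1 of 3 epithelial markers (Cdh1) to 5.82 to 10.5, 6.11 to 7.66, 4.53 to 5.66 and 4.2 to 7.13 CPM. These sums moved with genotype and LPS, and single markers within them moved apart. Between unstimulated WT and AhR-KO, Flt3 means were 9.07 and 4.09 CPM, Zbtb46 21.6 and 25.1, and Ccr7 0.94 and 0.551. S100a8 means were 20.2 and 24 CPM, and S100a9 3.13 and 1.19. With LPS, Flt3 held 11.6 and 4.73 CPM, Zbtb46 18 and 15.8, and Ccr7 7.05 and 2.46. The part of these markers in the results below was not tested. In such bulk libraries, fewer cells of a type with an open site and less opening per cell cannot be told apart.

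The sequences of 6 member peaks that carry the results below are printed as the 300 bases around the peak midpoint, taken from the RefSeq copy of GRCm38 (the assembly of mm10), forward strand. None of these windows touches an annotated exon of the member gene it was given to. Exons of other genes there were not checked. They were chosen because each shows 1 of the patterns: the largest fold loss at Nt5e in unstimulated AhR-KO, the tallest Adora3 peak lost in AhR-KO, the LPS-opened Adora2b intron, the P2rx4 peak whose genotype effect depended on LPS, and the P2ry6 and P2ry14 introns that were more open in unstimulated AhR-KO and with LPS. Capitals mark the match to 1 motif, named on each line.
Nt5e intron, chr9:88350903-88351202, no match to any motif searched: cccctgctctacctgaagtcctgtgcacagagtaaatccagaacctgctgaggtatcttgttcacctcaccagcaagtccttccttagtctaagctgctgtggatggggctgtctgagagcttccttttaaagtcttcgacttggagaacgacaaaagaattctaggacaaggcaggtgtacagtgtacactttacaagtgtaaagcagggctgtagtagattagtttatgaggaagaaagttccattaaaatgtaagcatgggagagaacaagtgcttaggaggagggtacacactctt
Adora3 intron, chr3:105900376-105900675, AhR core: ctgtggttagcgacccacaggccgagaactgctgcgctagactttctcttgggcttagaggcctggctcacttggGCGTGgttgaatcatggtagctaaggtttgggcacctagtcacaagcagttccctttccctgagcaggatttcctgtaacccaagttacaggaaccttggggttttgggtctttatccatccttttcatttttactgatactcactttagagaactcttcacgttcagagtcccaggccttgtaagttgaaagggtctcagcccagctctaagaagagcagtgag
Adora2b intron, chr11:62261347-62261646, NF-kB: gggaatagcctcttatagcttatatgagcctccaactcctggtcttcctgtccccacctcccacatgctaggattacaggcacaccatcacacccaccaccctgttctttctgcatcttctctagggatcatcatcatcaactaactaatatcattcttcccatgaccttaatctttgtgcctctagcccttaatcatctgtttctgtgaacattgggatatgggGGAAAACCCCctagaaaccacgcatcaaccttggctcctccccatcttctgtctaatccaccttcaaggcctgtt
P2rx4 upstream, chr5:122704529-122704828, C/EBP: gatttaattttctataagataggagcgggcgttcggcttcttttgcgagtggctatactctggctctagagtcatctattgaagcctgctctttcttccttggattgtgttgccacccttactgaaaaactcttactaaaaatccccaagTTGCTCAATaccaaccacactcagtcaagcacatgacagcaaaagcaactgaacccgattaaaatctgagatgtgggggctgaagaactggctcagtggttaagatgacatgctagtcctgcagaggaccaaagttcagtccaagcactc
P2ry6 intron, chr7:100946585-100946884, AP-1: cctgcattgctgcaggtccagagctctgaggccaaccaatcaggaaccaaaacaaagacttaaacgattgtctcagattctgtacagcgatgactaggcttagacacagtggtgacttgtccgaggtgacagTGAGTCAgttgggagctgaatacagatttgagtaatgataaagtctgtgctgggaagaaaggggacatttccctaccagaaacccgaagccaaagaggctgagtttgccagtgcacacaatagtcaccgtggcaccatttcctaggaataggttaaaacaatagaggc
P2ry14 intron, chr3:59141256-59141555, PU.1: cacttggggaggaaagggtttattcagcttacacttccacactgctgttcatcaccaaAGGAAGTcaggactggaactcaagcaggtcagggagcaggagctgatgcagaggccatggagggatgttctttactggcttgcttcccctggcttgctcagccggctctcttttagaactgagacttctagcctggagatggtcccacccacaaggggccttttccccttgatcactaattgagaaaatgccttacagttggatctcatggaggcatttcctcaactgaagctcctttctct

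The motifs were searched on both strands in such a window of every peak. The AhR core GCGTG, to which AhR and its partner bind, was in 34 of 156 member windows (21.8%) and in 16% of the windows of all 184060 peaks on the main chromosomes. The longer TNGCGTG, which contains that core, was in 3.21% of member windows and 2.85% of all. The macrophage factor motif PU.1 (AGGAAGT) was in 19.2% and 18.5%, AP-1 (TGANTCA) in 16% and 17.9%, NF-kB, searched by its consensus, in 7.05% and 4.87%, the interferon response element ISRE, likewise by its consensus, in 5.77% and 4.59%, and C/EBP (TTGCNNAAT) in 3.21% and 4.17%. Among member peaks less open in AhR-KO, the AhR core was in 1 of 17 windows without LPS and 1 of 15 with LPS, in both cases the Adora3 intron printed above. Among those more open it was in 5 of 20 and 5 of 18. Matches describe letters and were not tested for binding.

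Peaks were called differentially accessible regions (DARs) where edgeR's adjusted p did not exceed 0.05 and accessibility changed 1.5-fold or more. In unstimulated cells, AhR-KO against WT gave 17 lower and 20 higher DARs among the 153 tested member peaks, 24.2%, where 22.6% of all 174193 tested peaks were called. By direction, the share over all peaks was 12.6% lower and 9.95% higher. Under RLE size factors the member split was 12 lower and 25 higher, where 19366 of all peaks were lower and 20676 higher. Under DESeq2 it was 13 and 24, beside 19775 and 20500 of all peaks. With LPS the counts were 15 lower and 18 higher, 21.6%, beside 26.5% of all peaks (13.1% lower and 13.4% higher). Median log2 fold changes over the members were 0.00 and -0.09, beside -0.0212 and 0.0211 over all peaks, and the former was 0.06 under RLE. Under the main scaling these shares are near the background, so the member genes as a whole did not stand out there. Under RLE and DESeq2 the unstimulated member calls leaned more to higher than those over all peaks, which was not tested. The description below concerns single loci. Of the members, 9 were lower in AhR-KO in both treatments (52.9% of those lower without LPS, 60% of those lower with LPS), 13 were higher in both (65% and 72.2%), and 0 had opposite calls. Without LPS 21 member peaks had all AhR-KO libraries below all WT ones and 21 had all above (11.3% and 9.78% of all peaks), and with LPS 20 and 17 (8.96% and 10.6%).

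**Figure D1:**
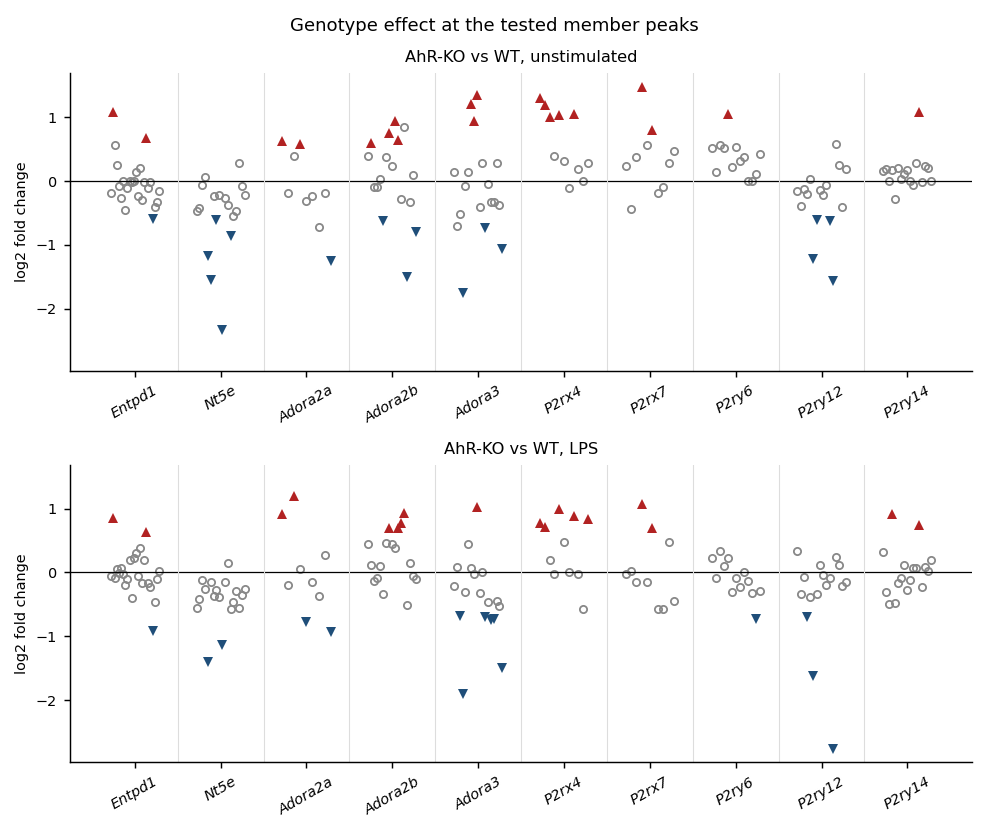
Genotype effect (log2 fold change, AhR-KO against WT) at each tested member peak, grouped by gene and ordered by position within a gene, without LPS (top) and with LPS (bottom). Filled triangles are DARs, pointing down where less open and up where more open in AhR-KO, and open circles are other peaks. Nt5e and P2ry12 carry only downward triangles, and P2rx4 and P2rx7 only upward ones. Other scalings added calls the other way. P2ry12 gained 1 upward call without LPS under RLE, upper quartile and DESeq2 scaling. With LPS, Nt5e gained 1 upward call under DESeq2, and under upper quartile scaling P2rx4 gained 1 and P2rx7 2 downward calls.

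The genes differed in direction, on few calls each. Over all peaks 12.6% were lower and 9.95% higher in AhR-KO without LPS, and 13.1% and 13.4% with LPS. Of 18 tested Nt5e peaks, 5 were lower DARs without LPS (27.8%) and 2 with LPS (11.1%, below the share over all peaks). Of 16 at P2ry12, 4 were lower without LPS (25%) and 3 with LPS (18.8%). Both genes had 0 higher DARs in either treatment under the main scaling. However, P2ry12 without LPS had 2 lower and 1 higher under RLE size factors and DESeq2, and 4 lower and 1 higher under upper quartile scaling. Nt5e with LPS had 2 lower and 1 higher under DESeq2, which tested 19 of its peaks. P2rx4 had 5 higher DARs of 11 tested in each treatment (45.5%). P2rx7 had 2 of 10 in each (20%, and 3 without LPS under the other 3 scalings). Both genes had 0 lower under the main scaling. With LPS, upper quartile scaling gave P2rx4 1 lower and 5 higher, and P2rx7 2 lower and 2 higher. Adora2b had 4 higher DARs of 17 tested in each treatment (23.5%), beside 3 lower ones in unstimulated cells (17.6%) and 0 after LPS. Adora3, with 18 tested, had 3 of each in unstimulated cells (16.7%), and after LPS 6 lower (33.3%) and 1 higher (5.56%). Of the 9 genes with a peak over their start (the 5′ end of the gene model, all but Adora3), only Adora2a had a genotype DAR there, without LPS, and 0 had one with LPS. Of the 71 tested intronic peaks, 29.6% were genotype DARs without LPS and 19.7% with LPS, and of the 36 downstream peaks 19.4% and 30.6%. Over all tested peaks, at any position, the shares were 22.6% and 26.5%.

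**Figure D2:**
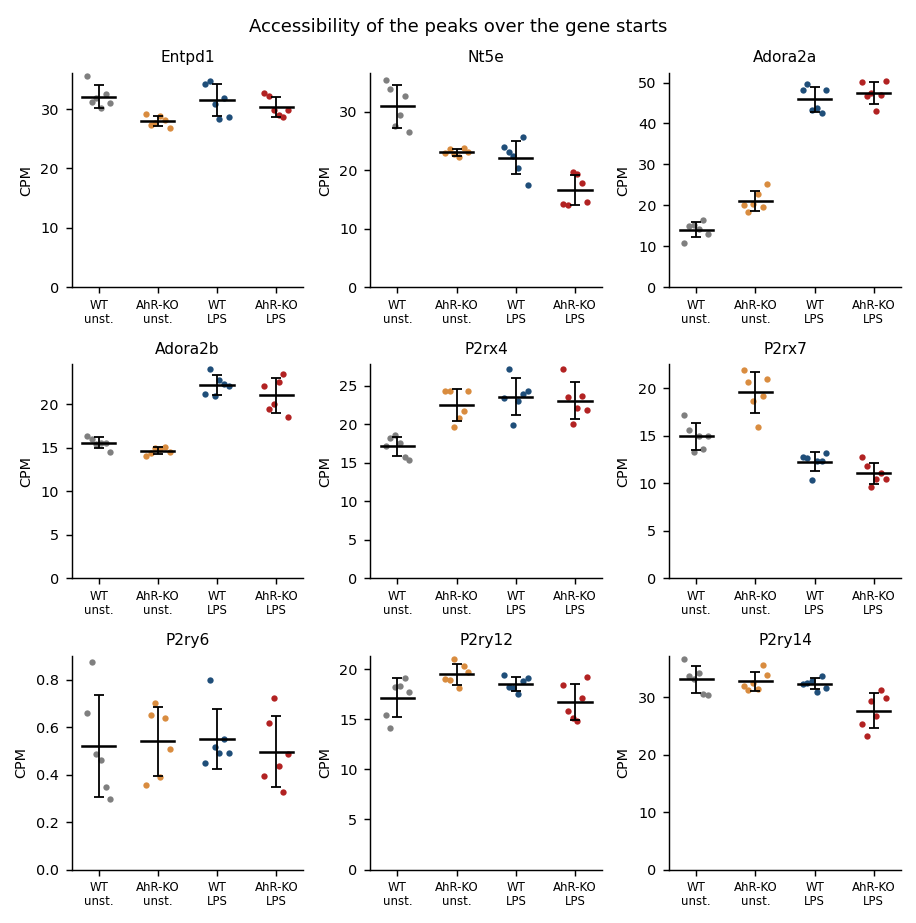
CPM of the peak over the start of each member gene that has one, in 6 libraries per group (points) with mean (line) and SD (bars), each axis from 0. The Adora2a start rose with LPS in both genotypes, the Nt5e start was highest in unstimulated WT, and the P2ry6 start held under 1 CPM in every library.

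Nt5e, which makes adenosine from AMP, lost accessibility at intronic sites in AhR-KO cells. Its intronic peak at 88350739 to 88351365 on chromosome 9, 23855 bases from the gene start, held 2.44, 3.78 and 5.08 CPM (lowest, median and highest of 6 libraries) in unstimulated WT and 0.547, 0.734 and 1.1 CPM in unstimulated AhR-KO. With LPS it held 0.890, 1.59 and 1.92 CPM in WT and 0.395, 0.621 and 0.936 CPM in AhR-KO. The genotypes did not overlap without LPS and overlapped slightly with LPS. AhR-KO differed from WT by -2.33 on the log2 scale without LPS (SE 0.198, adjusted p 1.07e-11), and LPS-treated cells had -1.13 (SE 0.21, adjusted p 3.43e-05), a difference of 1.2 (SE 0.298, adjusted p 0.00512). In WT the site closed with LPS, at -1.43 (SE 0.174, adjusted p 5.99e-09), and in AhR-KO the LPS effect was -0.23 (adjusted p 0.411).

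Of its intronic neighbours, the peak at 88338290 to 88338760 was lower in AhR-KO in both treatments, at 1.89 ± 0.377 against 0.856 ± 0.0758 CPM without LPS (-1.18, SE 0.21, adjusted p 2.05e-05) and at 1.92 ± 0.665 against 0.732 ± 0.188 CPM with LPS (-1.4, SE 0.2, adjusted p 5e-07), with no overlap in either. The peak at 88340916 to 88341514 fell without LPS, from 1.48 ± 0.347 CPM in WT to 0.493 ± 0.159 in AhR-KO (-1.55, SE 0.232, adjusted p 1.31e-06), and with LPS the means were 1.33 ± 0.33 and 1.21 ± 0.248 CPM (-0.15, adjusted p 0.535). LPS raised it in AhR-KO (1.29, SE 0.227, adjusted p 5.75e-06), the WT effect was -0.1 (adjusted p 0.662), and the difference between them was itself a DAR (1.39, SE 0.299, adjusted p 0.00148).

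The Nt5e start (88327095 to 88328088) held 26.5, 31 and 35.5 CPM in unstimulated WT, 22.3, 23 and 23.8 in unstimulated AhR-KO, 17.5, 22.7 and 25.6 in LPS-treated WT and 14.1, 16.2 and 19.7 in LPS-treated AhR-KO. Genotype and LPS each went with a similar difference: -0.42 (adjusted p 0.000243) and -0.41 (adjusted p 0.000238) for genotype without and with LPS, -0.48 and -0.47 for LPS in WT and AhR-KO, all short of the 1.5-fold threshold, with an interaction of 0.00 (SE 0.125). Over the whole locus the summed peaks held 139 ± 7.12 CPM in unstimulated WT, 113 ± 2.92 in unstimulated AhR-KO, 120 ± 9.45 in LPS-treated WT and 98 ± 13.2 in LPS-treated AhR-KO, and 16 of 18 tested peaks had a negative genotype effect without LPS. One exonic peak went the other way with LPS (88356719 to 88358052), from 2.86 ± 0.479 to 15.5 ± 3.26 CPM in WT (2.47, SE 0.178, adjusted p 1.43e-12) and from 2.15 ± 0.184 to 17.2 ± 5.06 CPM in AhR-KO (2.99, SE 0.179, adjusted p 1.36e-14).

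Entpd1, the upstream enzyme, had few genotype DARs. Its start peak (40611828 to 40612655 on chromosome 19), which also covers the start of Tctn3, held 30.1, 31.5 and 35.6 CPM in unstimulated WT and 26.8, 28 and 29.1 CPM in unstimulated AhR-KO, with no overlap but a log2 fold change of only -0.19 (SE 0.0579, adjusted p 0.00747). With LPS the groups overlapped at 31.5 ± 2.69 and 30.4 ± 1.64 CPM. Of 24 peaks, 1 was lower and 2 were higher in AhR-KO in each treatment, and the locus sum ran from 203 to 242 CPM over all 24 libraries. The peak over an alternative coding transcript start, a kind of peak added after values were seen (40659555 to 40662288) had no DAR in any comparison, at 22.6 ± 0.769, 20.9 ± 0.68, 20.1 ± 1.42 and 18.6 ± 1.17 CPM in unstimulated WT, unstimulated AhR-KO, LPS-treated WT and LPS-treated AhR-KO.

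Its single lower DAR, intronic at 40728298 to 40729258, fell from 4.01 ± 0.439 CPM in WT to 2.12 ± 0.315 in AhR-KO with LPS (-0.92, SE 0.127, adjusted p 2.89e-07, no overlap). Without LPS it was 5.5 ± 0.809 and 3.64 ± 0.629 CPM (-0.59, SE 0.124, adjusted p 0.000211), a call that ended at -0.53 to -0.58 without any 1 of WT unstimulated replicates 3, 4, 5 and 6, AhR-KO unstimulated replicates 1, 3 and 6 and AhR-KO LPS replicate 3, and likewise under RLE, upper quartile and DESeq2 scaling and with only the groups compared. The intronic peak at 40626534 to 40627072 rose in AhR-KO, at 1.09 (SE 0.238, adjusted p 0.000328) without LPS and 0.85 (SE 0.152, adjusted p 2.11e-05) with LPS, from low levels of 0.356 ± 0.102 and 1.2 ± 0.202 CPM in WT. The largest LPS effect at the gene was in an intron at 40699902 to 40700423, where LPS raised the level from 0.317 ± 0.0918 to 3.11 ± 0.467 CPM in WT (3.36, SE 0.189, adjusted p 1.35e-17) and from 0.300 ± 0.0922 to 3.58 ± 0.298 CPM in AhR-KO (3.57, SE 0.178, adjusted p 2.19e-19). The genotypes did not differ there by the test (0.2 with LPS, adjusted p 0.179).

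For the LPS effect, 22 member peaks were lower and 33 higher in WT, 35.9%, where 47% of all peaks were called (21.6% lower and 25.4% higher). In AhR-KO 37 were lower and 35 higher, 47.1%, beside 48.8% (21.5% and 27.3%). Median log2 fold changes of the members were -0.01 and -0.1, beside -0.0141 and 0.046 over all peaks. Of the lower DARs 18 were shared by the genotypes, of the higher ones 28, and 0 had opposite calls. Groups did not overlap at 35 lower and 34 higher peaks in WT (18.3% and 20.5% of all peaks) and at 50 and 35 in AhR-KO (20.6% and 24.9%). The gene with the most one-sided LPS response was Adora2a, with 6 higher DARs in WT, 7 in AhR-KO and 0 lower in either of 9 tested peaks. Adora2b followed with 7 higher and 2 lower in WT and 8 higher and 2 lower in AhR-KO.

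**Figure D3:**
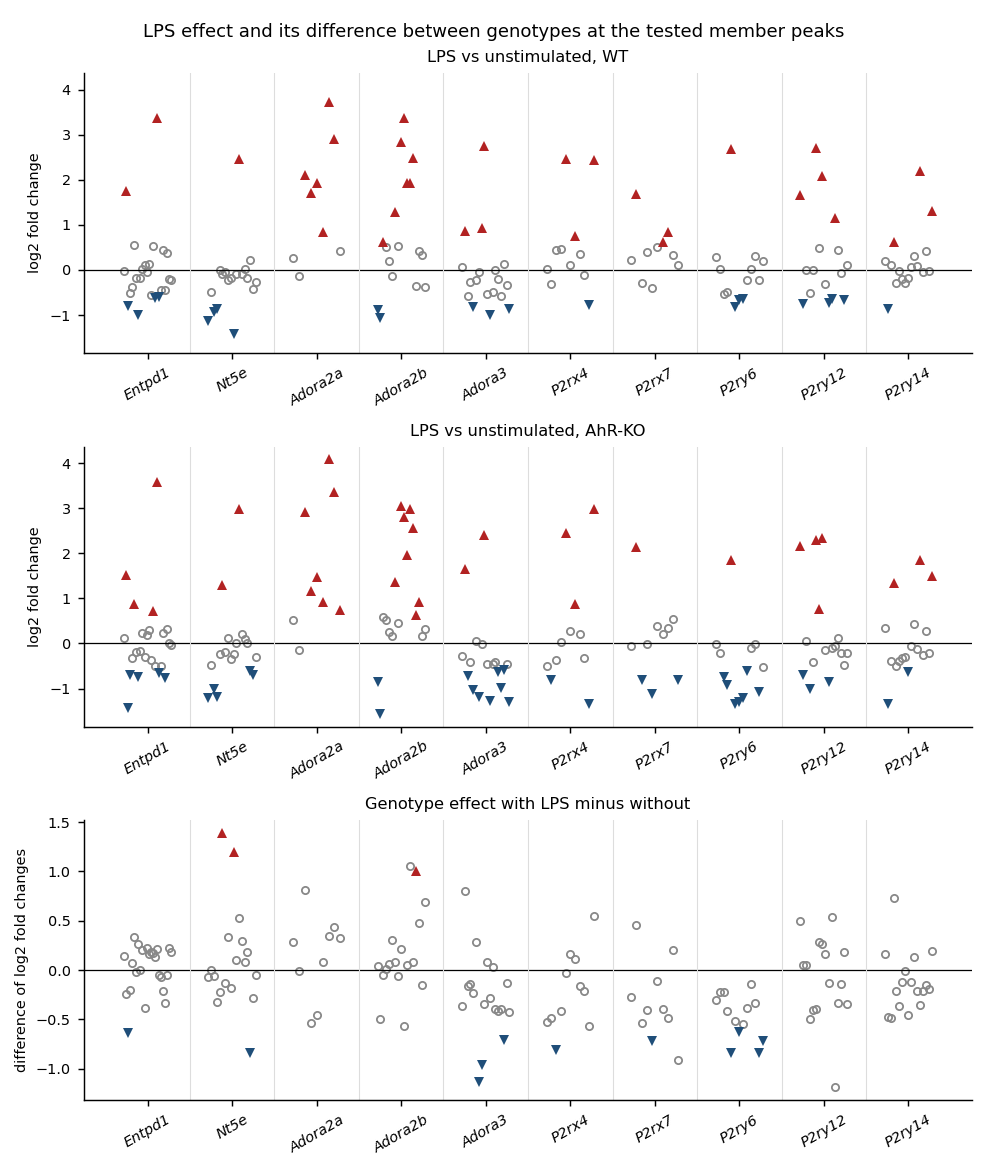
LPS effect (log2 fold change, LPS against unstimulated) in WT (top) and AhR-KO (middle), and the difference between the genotype effects with and without LPS (bottom), at each tested member peak by gene. Filled triangles are DARs and open circles other peaks; Adora2a has only upward triangles in the top panels, and all 13 P2ry6 peaks lie below 0 in the bottom panel.

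Adora2a, the high-affinity receptor that raises cAMP and dampens macrophage activation, opened with LPS in both genotypes. Its start (75316534 to 75318944 on chromosome 10) held 10.8, 14.5 and 16.3 CPM in unstimulated WT, 18.3, 20.2 and 25.2 in unstimulated AhR-KO, 42.6, 46 and 49.6 in LPS-treated WT and 43, 47.2 and 50.3 in LPS-treated AhR-KO. AhR-KO lay above WT in all libraries without LPS, and the genotypes overlapped with LPS. The genotype effect was 0.59 (SE 0.0781, adjusted p 1.43e-07) without LPS, just past the fold threshold, and 0.05 (adjusted p 0.611) with LPS. The first was no DAR without WT unstimulated replicate 1 (0.53) or 6 (0.58) or AhR-KO unstimulated replicate 4 (0.57) or 6 (0.53). LPS raised the start by 1.71 (SE 0.0758, adjusted p 1.6e-20) in WT and by 1.17 (SE 0.072, adjusted p 9.47e-17) in AhR-KO, and the difference of -0.54 (SE 0.104, adjusted p 0.000457) was short of the fold threshold.

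Upstream of Adora2a, inside the gene Specc1l, a weak peak (75303677 to 75304228) rose with LPS to 1.71, 2.12 and 2.67 CPM in WT and to 3.77, 5.12 and 5.7 CPM in AhR-KO, from means of 0.548 ± 0.305 and 0.646 ± 0.174 CPM. Genotypes did not overlap with LPS, and AhR-KO exceeded WT by 1.2 (SE 0.143, adjusted p 1.7e-08). The LPS effect was 2.1 (SE 0.207, adjusted p 4.48e-11) in WT and 2.91 (SE 0.176, adjusted p 5.67e-17) in AhR-KO, and the difference of 0.81 did not pass the test (adjusted p 0.0595). Downstream, the peak at 75338548 to 75339180 was lower in AhR-KO at 2.18 ± 0.404 against 5.15 ± 1.17 CPM without LPS (-1.25, SE 0.194, adjusted p 4.93e-06) and at 3.66 ± 0.662 against 6.94 ± 2.07 CPM with LPS (-0.93, SE 0.17, adjusted p 4.64e-05). The locus sum did not separate the genotypes, at 54.7 ± 2.2 and 53.7 ± 3.72 CPM without LPS and 133 ± 19 and 124 ± 8.52 CPM with LPS.

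Adora2b, the low-affinity adenosine receptor, opened with LPS away from its start more than at it. The start (62248427 to 62250133 on chromosome 11) went from 15.6 ± 0.628 to 22.2 ± 1.15 CPM in WT (0.51, SE 0.0622, adjusted p 5.15e-09) and from 14.7 ± 0.385 to 21 ± 1.97 CPM in AhR-KO (0.52, SE 0.0618), no overlap in either but short of the fold threshold, and the genotypes overlapped. In the intron at 62261119 to 62261874, whose sequence is printed above, WT held 0.726, 1.48 and 2.09 CPM without LPS and 8.6, 10.1 and 11.6 CPM with LPS. AhR-KO held 0.974, 1.56 and 2.26 CPM and 12.1, 13.2 and 16.9 CPM. LPS raised it by 2.83 (SE 0.161, adjusted p 5.57e-17) in WT and 3.04 (SE 0.149, adjusted p 5e-19) in AhR-KO, and with LPS all AhR-KO libraries lay above all WT libraries at a genotype effect of 0.44 (SE 0.12, adjusted p 0.00275), short of the threshold.

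A downstream peak inside Zswim7 (62267706 to 62269920) added the genotype effect to the LPS effect. It held 1.95 ± 0.411 CPM in unstimulated WT, 3.15 ± 0.407 in unstimulated AhR-KO, 7.6 ± 0.774 in LPS-treated WT and 12.3 ± 1.22 in LPS-treated AhR-KO, with no overlap between any of the groups compared. AhR-KO exceeded WT by 0.65 (SE 0.131, adjusted p 0.000128) without LPS and 0.7 (SE 0.0953, adjusted p 2.31e-07) with LPS, and LPS raised the level by 1.92 (SE 0.119) in WT and 1.97 (SE 0.107) in AhR-KO. The upstream peak at 62240520 to 62241295 closed with LPS, from 5.57 ± 1.05 to 2.64 ± 0.622 CPM in WT (-1.06, SE 0.135, adjusted p 1.49e-08) and from 8.41 ± 0.765 to 2.85 ± 0.361 CPM in AhR-KO (-1.56, SE 0.13, adjusted p 4.51e-13). The Adora2b locus sum was 78.3 ± 2.4 and 82.9 ± 4.44 CPM without LPS and 104 ± 4.19 and 114 ± 10.3 CPM with LPS, in WT and AhR-KO.

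Adora3, the Gi-coupled adenosine receptor, was the gene whose locus sum was lower both in AhR-KO and with LPS without overlap. The sum held 174 to 201 CPM in unstimulated WT, 145 to 161 in unstimulated AhR-KO, 136 to 151 in LPS-treated WT and 100 to 114 in LPS-treated AhR-KO, so each of the 4 comparisons separated all 6 libraries from the other 6. No peak covers the annotated start of Adora3, and 14 of its 18 peaks also lie in the overlapping gene Tmigd3, so that these peaks cannot be given to either gene alone. Its tallest genotype DAR, intronic at 105899856 to 105901195 on chromosome 3, held 30.1, 37 and 41.1 CPM in unstimulated WT, 18.8, 22.5 and 23.1 in unstimulated AhR-KO, 23.6, 25.6 and 27.8 in LPS-treated WT and 15, 15.8 and 17.1 in LPS-treated AhR-KO. The genotypes did not overlap in either treatment. Its log2 fold change, -0.73 (SE 0.0659, adjusted p 4.56e-11) in unstimulated cells, was -0.7 (SE 0.066, adjusted p 1.49e-10) after LPS, with an interaction of 0.03 (SE 0.0933).

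The peak nearest the annotated Adora3 start, intronic at 105871367 to 105871771 and named after its values were seen, fell from 3.1 ± 0.897 CPM in WT to 0.932 ± 0.24 in AhR-KO without LPS (-1.76, SE 0.213, adjusted p 2.7e-08) and from 2.65 ± 0.675 to 0.710 ± 0.234 with LPS (-1.9, SE 0.213, adjusted p 6.13e-09), without overlap. LPS itself gave -0.27 (adjusted p 0.204) and -0.41 (adjusted p 0.154) there. The gene also held 3 intronic DARs that were more open in AhR-KO without LPS. That at 105880208 to 105880637 rose from 1.18 ± 0.237 to 2.72 ± 0.597 CPM (1.21, SE 0.194, adjusted p 3.92e-06) without LPS, while the levels with LPS were 1.14 ± 0.335 and 1.2 ± 0.305 CPM (0.07, adjusted p 0.801). That at 105891253 to 105891421 was near 0 without LPS, at 0.168 ± 0.0564 and 0.424 ± 0.152 CPM, and opened with LPS to 1.11 ± 0.158 CPM in WT (2.74, SE 0.261, adjusted p 1.94e-11) and 2.25 ± 0.259 CPM in AhR-KO (2.4, SE 0.191, adjusted p 1.24e-13). The most significant LPS loss was at 105898204 to 105898756, from 14.3 ± 1.78 to 7.14 ± 0.758 CPM in WT (-0.99, SE 0.0829, adjusted p 6.78e-13) and from 17.3 ± 0.775 to 7.17 ± 0.539 CPM in AhR-KO (-1.27, SE 0.0821, adjusted p 3.64e-16).

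P2rx4, an ATP-gated channel of macrophage endosomes and plasma membrane, had 5 peaks more open in AhR-KO in each treatment. The upstream peak at position -2866 relative to its start (122704449 to 122704907 on chromosome 5) held 3.84, 5.12 and 6.22 CPM in unstimulated WT and 8.95, 10.4 and 12.5 CPM in unstimulated AhR-KO, without overlap (1.01, SE 0.105, adjusted p 1.09e-09). With LPS it held 6, 7.2 and 7.64 CPM in WT and 7.02, 8.15 and 9.32 CPM in AhR-KO, which overlapped (0.2, SE 0.0985, adjusted p 0.0971), and the difference of -0.81 was a DAR (SE 0.144, adjusted p 0.000196). The start itself (122707149 to 122708375) held 17.1 ± 1.29 against 22.5 ± 2.06 CPM without LPS (0.39, SE 0.077, adjusted p 9.7e-05) and 23.6 ± 2.33 against 23.1 ± 2.43 CPM with LPS (-0.03, adjusted p 0.761). The locus sum was 42.9 ± 3.03, 58.8 ± 5.18, 47.1 ± 2.23 and 49 ± 4.23 CPM in unstimulated WT, unstimulated AhR-KO, LPS-treated WT and LPS-treated AhR-KO, so the unstimulated AhR-KO libraries lay apart from the unstimulated WT ones.

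An exonic P2rx4 peak (122710687 to 122710931) opened with LPS from 0.177 ± 0.103 to 1.01 ± 0.268 CPM in WT (2.46, SE 0.312, adjusted p 1.32e-08) and from 0.372 ± 0.0877 to 2.03 ± 0.604 CPM in AhR-KO (2.44, SE 0.24, adjusted p 2.89e-11), and after LPS AhR-KO exceeded WT there by 1 (SE 0.194, adjusted p 6.42e-05). Downstream of the gene and inside Camkk2, the peak at 122731136 to 122733007 closed with LPS (-0.78, SE 0.0877, adjusted p 1.01e-09) in WT, and AhR-KO had -1.35 (SE 0.0908, adjusted p 1.08e-15) in AhR-KO. A second Camkk2 peak (122743940 to 122744456) opened (2.44, SE 0.3, adjusted p 7.29e-09 in WT, 2.99, SE 0.257, adjusted p 9.17e-13 in AhR-KO), to 1 ± 0.12 CPM in WT and 1.82 ± 0.645 CPM in AhR-KO.

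P2rx7, the ATP-gated channel upstream of the inflammasome, lies next to P2rx4 and had 2 higher DARs in AhR-KO in each treatment. The intronic peak at 122649383 to 122649852 on chromosome 5 held 0.396, 0.532 and 0.792 CPM in unstimulated WT, 1.23, 1.61 and 2.08 in unstimulated AhR-KO, 0.587, 0.744 and 0.981 in LPS-treated WT and 1.04, 1.46 and 2.62 in LPS-treated AhR-KO. The genotypes did not overlap in either treatment (1.48, SE 0.231, adjusted p 2.75e-06, and 1.07, SE 0.199, adjusted p 3.54e-05). The start (122643628 to 122645651) held 13.3, 15 and 17.2 CPM in unstimulated WT, 15.9, 19.9 and 21.9 in unstimulated AhR-KO, 10.4, 12.5 and 13.2 in LPS-treated WT and 9.62, 10.8 and 12.8 in LPS-treated AhR-KO. LPS closed it in AhR-KO (-0.82, SE 0.0811, adjusted p 3.28e-11). In WT the effect was -0.29 (SE 0.0821, adjusted p 0.00276), and the difference of -0.54 (SE 0.115, adjusted p 0.00149) was short of the fold threshold. An upstream peak at 122637029 to 122637369 opened with LPS in both genotypes, to 1.35 ± 0.33 CPM in WT (1.68, SE 0.242, adjusted p 1.75e-07) and 1.39 ± 0.222 CPM in AhR-KO (2.14, SE 0.248, adjusted p 1.39e-09).

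**Figure D4:**
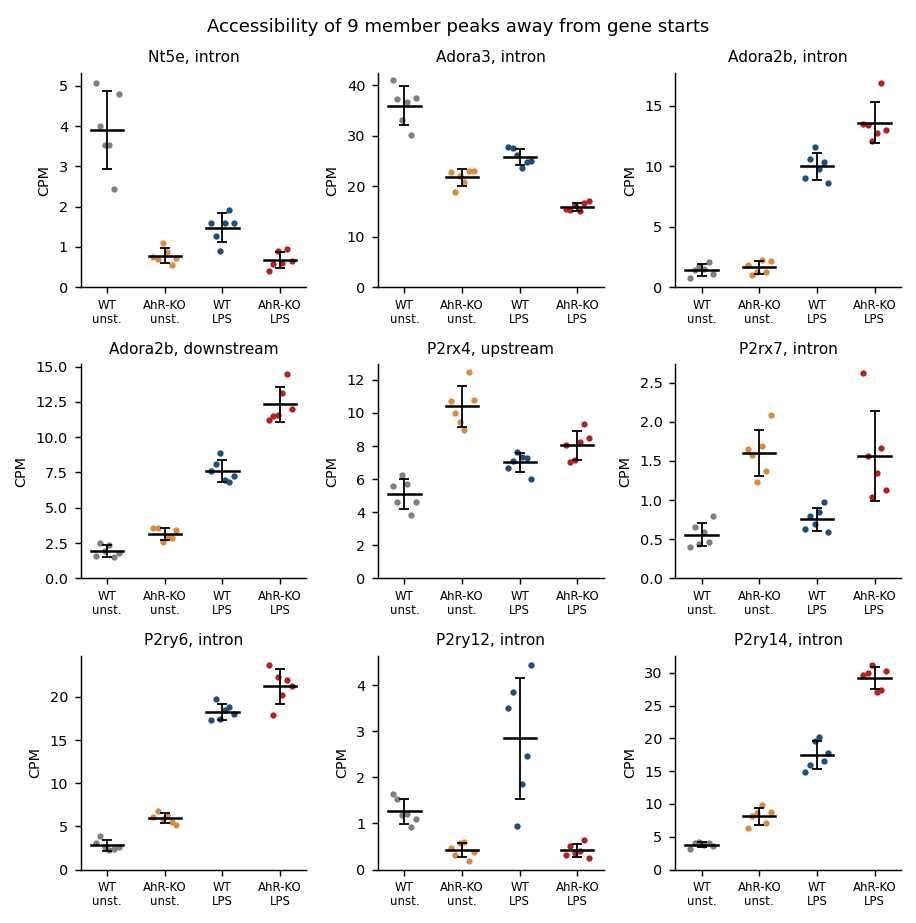
CPM of 9 member peaks away from gene starts in 6 libraries per group (points) with mean (line) and SD (bars), each axis from 0. The Nt5e, Adora3 and P2ry12 introns were lower in AhR-KO, while the P2rx4, P2rx7, P2ry6 and P2ry14 peaks were higher in unstimulated AhR-KO than in unstimulated WT libraries.

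P2ry6, the receptor for UDP that drives phagocytosis and chemokine release, had 4 peaks where the genotype effect depended on LPS, more than any other of the 10 genes. All 13 of its peaks had a negative interaction, also under RLE, upper quartile and DESeq2 scaling, 4 of them DARs, where the median over all peaks was 0.0392. Without LPS 12 of 13 peaks had a positive genotype effect (median 0.38) and with LPS 4 of 13 (median -0.09). The locus sum accordingly held 113 to 126 CPM in unstimulated WT and 136 to 164 in unstimulated AhR-KO, apart from each other, and 98.5 to 116 and 96.5 to 116 CPM with LPS. Levels at the annotated start (100974335 to 100974729 on chromosome 7) were 0.297 to 0.872 CPM over all 24 libraries, with no call in any comparison. The peak over an alternative coding transcript start (100963972 to 100965368) held 24.9, 26.7 and 29.9 CPM in unstimulated WT, 32, 35.4 and 38.8 in unstimulated AhR-KO, 19.9, 23 and 26.1 in LPS-treated WT and 20.7, 22.8 and 25.4 in LPS-treated AhR-KO. There LPS lowered the level in AhR-KO (-0.61, SE 0.0649, adjusted p 1.88e-10), against -0.22 (SE 0.0658, adjusted p 0.00337) in WT.

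Its intronic peak at 100946402 to 100947067, printed above, was the only genotype DAR of P2ry6 without LPS, where RLE size factors and DESeq2 each called 3 of its peaks. It held 2.3, 2.61 and 3.88 CPM in unstimulated WT, 5.21, 5.99 and 6.82 in unstimulated AhR-KO, 17.3, 18.2 and 19.7 in LPS-treated WT and 17.9, 21.6 and 23.7 in LPS-treated AhR-KO. The unstimulated genotypes did not overlap and the LPS-treated ones did. AhR-KO exceeded WT by 1.06 (SE 0.11, adjusted p 8.85e-10) without LPS, against 0.22 (SE 0.0794, adjusted p 0.0251) with LPS, and LPS raised the level by 2.68 (SE 0.101, adjusted p 1.43e-22) in WT and 1.84 (SE 0.0884, adjusted p 8.47e-20) in AhR-KO. The difference was -0.84 (SE 0.136, adjusted p 5e-05). Other introns closed with LPS. The peak at 100950261 to 100951258 went from 28.4 ± 0.517 to 16 ± 1.74 CPM in WT (-0.83, SE 0.0824, adjusted p 6.59e-11) and from 33.2 ± 4.27 to 13 ± 1.77 CPM in AhR-KO (-1.35, SE 0.0832, adjusted p 1.35e-16).

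P2ry12, the ADP receptor best known from platelets and microglia, lost accessibility at intronic and downstream sites in AhR-KO. All 16 of its peaks lie inside Med12l, whose gene body spans P2ry12 and P2ry14. In addition 2 lie in P2ry13, of which 1 covers the start of P2ry13. The other, downstream of P2ry12 at 59208034 to 59209075, counts among the 3 lower DARs with LPS. There AhR-KO held 6.76 ± 0.505 CPM against 11 ± 0.832 in WT (-0.7, SE 0.0773, adjusted p 3.47e-09, no overlap). The intronic peak at 59239140 to 59239642 on chromosome 3, named after its values were seen, held 0.931, 1.19 and 1.65 CPM in unstimulated WT, 0.182, 0.427 and 0.608 in unstimulated AhR-KO, 0.947, 2.99 and 4.43 in LPS-treated WT and 0.243, 0.379 and 0.651 in LPS-treated AhR-KO. The WT LPS libraries were widely spread, yet all lay above the AhR-KO ones. The lowest, WT LPS replicate 3, was also lowest of its group at P2ry12 59213717, Nt5e 88338290, Adora3 105871367 and Adora2a 75338548. There it held 2.07, 1.18, 1.81 and 3.99 CPM. It was not lowest at the Adora3 intron from 105899856 (26.2 CPM). Whether such losses vary together over libraries was not tested. The genotype effect was -1.57 (SE 0.351, adjusted p 0.000577) without LPS and -2.76 (SE 0.3, adjusted p 1.26e-08) with LPS. LPS opened it in WT (1.15, SE 0.265, adjusted p 0.000397), while AhR-KO had -0.05 (adjusted p 0.929), and the difference did not pass the test (-1.19, SE 0.488, adjusted p 0.0975).

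Below the gene, the peak at 59213717 to 59213999 opened with LPS in both genotypes, to 4 ± 1.47 CPM in WT (2.7, SE 0.268, adjusted p 2.63e-10) and 1.3 ± 0.458 CPM in AhR-KO (2.3, SE 0.342, adjusted p 5.57e-07), and was lower in AhR-KO by the test at -1.22 (SE 0.408, adjusted p 0.0166) without LPS, as at -1.62 (SE 0.224, adjusted p 5.85e-07) with LPS. The intronic peak at 59234846 to 59235933 fell in AhR-KO without LPS, from 4.79 ± 0.615 to 3.06 ± 0.277 CPM (-0.63, SE 0.115, adjusted p 2.93e-05), a call lost at -0.56 without WT unstimulated replicate 1 and at -0.57 under RLE and DESeq2. With LPS the means were 3.04 ± 0.414 and 2.84 ± 0.298 CPM. The exonic peak over 2 alternative coding transcript starts (59219216 to 59220308) was lower in AhR-KO without LPS, just past the fold threshold (-0.61, SE 0.161, adjusted p 0.00244). The means were 4.66 ± 0.376 and 3.05 ± 0.847 CPM, with overlap. With LPS they were 6.49 ± 1.47 and 5.15 ± 0.775 CPM (-0.33, adjusted p 0.0529), and LPS raised the level in AhR-KO (0.76, SE 0.154, adjusted p 5.67e-05). The P2ry12 start (59262697 to 59264297) had no call, at 17.1 ± 1.95, 19.5 ± 1.07, 18.5 ± 0.704 and 16.7 ± 1.8 CPM in unstimulated WT, unstimulated AhR-KO, LPS-treated WT and LPS-treated AhR-KO. The starts of the platelet lineage markers Itga2b and Pf4 summed to 13.2 to 16.2, 11 to 13, 8.04 to 14.8 and 6.22 to 9.08 CPM in the same order, and their part in the P2ry12 values was not tested.

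P2ry14, the receptor for UDP-glucose, had the highest locus sum of the 10 genes, with values of 281 to 333 CPM over all libraries and overlap in all 4 comparisons. Its start (59151876 to 59154047 on chromosome 3) had no call and held 33.1 ± 2.38, 32.8 ± 1.72, 32.3 ± 0.952 and 27.6 ± 3.06 CPM in unstimulated WT, unstimulated AhR-KO, LPS-treated WT and LPS-treated AhR-KO. Its genotype DAR with the smallest p was in an intron at 59140778 to 59142032, where 3.1, 3.87 and 4.19 CPM in unstimulated WT stood against 6.29, 8.34 and 9.82 in unstimulated AhR-KO. With LPS the values were 14.8, 17.2 and 20.2 CPM in WT and 27, 29.8 and 31.2 CPM in AhR-KO. None of the 4 comparisons overlapped. AhR-KO exceeded WT by 1.09 (SE 0.106, adjusted p 2.28e-10) without LPS and 0.74 (SE 0.0808, adjusted p 2.99e-09) with LPS, and LPS raised the level by 2.2 (SE 0.1, adjusted p 3.02e-20) in WT and 1.85 (SE 0.0876, adjusted p 5.07e-20) in AhR-KO. A broad upstream peak at 59168436 to 59172504 opened with LPS from 16.7 ± 1.76 to 40.8 ± 2.41 CPM in WT (1.3, SE 0.0621, adjusted p 1.34e-19) and from 16.7 ± 1.22 to 46.8 ± 1.73 CPM in AhR-KO (1.49, SE 0.061, adjusted p 8.28e-22).

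**Figure D5:**
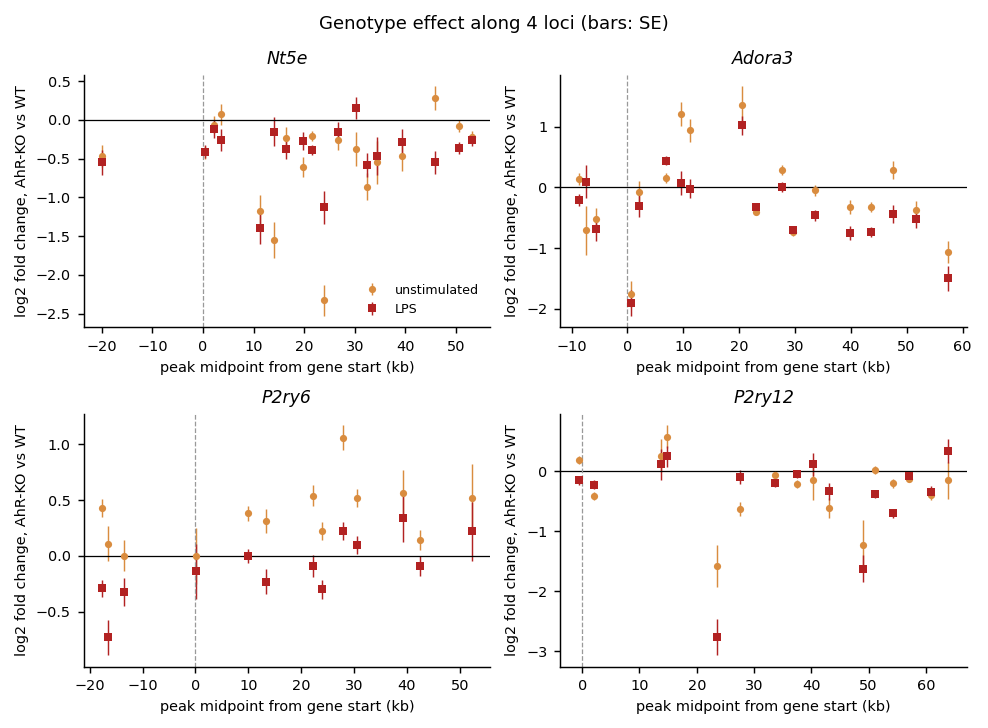
Genotype effect (log2 fold change with SE) against the distance of the peak midpoint from the gene start in kb, along the direction of transcription, without LPS (circles) and with LPS (squares). Nt5e, Adora3 and P2ry12 peaks reach -2.33, -1.9 and -2.76, and P2ry6 peaks lie higher without LPS than with LPS.

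The test of the genotype effect with LPS against that without gave 11 lower and 3 higher DARs among the 153 member peaks, 9.15%, where 10.4% of all peaks were called (4.58% lower and 5.83% higher). Over all peaks, lower calls were 44% of the calls and 54.2% under DESeq2, while the member counts were 15 and 2 there. The lower member DARs were spread over P2ry6 with 4, Adora3 with 3, and Entpd1, Nt5e, P2rx4 and P2rx7 with 1 each. At the Entpd1 intron 40628899 to 40629261, LPS lowered the level from 4.35 ± 0.417 to 1.6 ± 0.234 CPM in AhR-KO (-1.44, SE 0.14, adjusted p 2.08e-11) and from 2.87 ± 0.547 to 1.68 ± 0.368 CPM in WT (-0.8, SE 0.144, adjusted p 8.82e-06). Its difference of -0.64 (SE 0.202, adjusted p 0.0263) ended without WT unstimulated replicate 5 (-0.58), WT LPS replicate 3 (-0.58) or 6 (-0.56) or AhR-KO LPS replicate 2 (-0.59). At the P2rx7 coding exon 122653238 to 122654513, LPS lowered the level by -1.13 (SE 0.156, adjusted p 7e-08) in AhR-KO against -0.41 (adjusted p 0.0278) in WT, and the difference of -0.72 (SE 0.226, adjusted p 0.0258) was -0.63 without WT LPS replicate 4 (adjusted p 0.0576).

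For context, 31 other genes of nucleotide and adenosine handling (further ectonucleotidases, adenosine deaminase and kinase, nucleoside transporters, Panx1 and the remaining receptors) had 328 peaks by the same rule, 319 tested. AhR-KO against WT gave 41 lower and 23 higher DARs without LPS (12.9% and 7.21%, beside 12.6% and 9.95% of all peaks). With LPS it gave 60 lower and 32 higher (18.8% and 10%, beside 13.1% and 13.4%). LPS gave 73 lower and 69 higher in WT (22.9% and 21.6%, beside 21.6% and 25.4%). In AhR-KO it gave 79 lower and 62 higher (24.8% and 19.4%, beside 21.5% and 27.3%). Those with the smallest p per direction, a choice made after the values were seen, include an Entpd6 peak that fell from 4.8 ± 1.36 to 0.972 ± 0.0707 CPM in unstimulated AhR-KO (-2.33, SE 0.199, adjusted p 1.44e-11) and an Entpd8 peak that rose from 1.49 ± 0.306 to 4.96 ± 0.753 CPM (1.76, SE 0.146, adjusted p 6.35e-12). With LPS, a peak of Panx1, the channel that releases ATP, was lower in AhR-KO at 17.2 ± 1.61 against 31.3 ± 2.4 CPM (-0.86, SE 0.0614, adjusted p 3.25e-13), and a peak of the nucleoside transporter Slc28a2 was higher at 21.9 ± 1.04 against 13.5 ± 0.628 CPM (0.69, SE 0.069, adjusted p 4.56e-10).

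Over the 24 libraries, the start peak most like that of a member, among 12865 genes on other chromosomes, was Kcnk10 for Adora2a (Pearson r 0.979), Stx11 for Adora2b (0.955), Ube2g2 for P2rx4 (0.941), Pgm2 for Nt5e (0.94), Zfp174 for Entpd1 (0.89), Sgk3 for P2ry14 (0.853), Bmf for P2ry12 (0.762) and Ccdc160 for P2ry6 (0.582). The points share the 4 groups, so the values follow the group differences and carry no test. Member peaks were wider than other peaks (median 673 against 548 bases) and held more counts (median 3.87 against 2.04 CPM), with a GC content of 47.7% against 46.3%. Of the 156 peaks, 69 were called by the authors in all 24 libraries, and 76, 91, 95 and 88 in all 6 libraries of unstimulated WT, unstimulated AhR-KO, LPS-treated WT and LPS-treated AhR-KO. Such calls depend on depth, and mean totals were 18.6, 22.7, 30.6 and 25.6 M in the same order. By position 71 lay in introns, 37 downstream and 23 upstream of the gene, 16 in exons and 9 over the start, and 71 also lay in another gene.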

How the data were processed

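ATAC-seq of BMDMs gave 24 libraries, 6 in each of 4 groups taken from the sample labels. The authors ran the nf-core atacseq pipeline against mm10, called MACS2 broad peaks in each library, merged them into consensus peaks and counted read pairs with featureCounts 2.0.1 (bcl2fastq 2.20.0 is also named in the submitters' processing notes). The deposited table holds raw counts per consensus peak. A pair was counted in every peak it overlapped. The deposited peak lists hold the -log10 q-value of each library's peaks and were used only to count in how many libraries a member peak had been called. The table's starts equal the starts in those lists for 156 of 156 members, so a printed interval begins 1 base before the called peak. All value columns were matched to a sample (0 unmatched).

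From the counts, edgeR 4.0.16 in R 4.3.3 (limma 3.58.1) was fitted once over the 24 libraries, with TMM scaling, its expression filter, which kept 174193 of 184158 peaks, and the robust quasi-likelihood F test with Benjamini-Hochberg adjustment over all tested peaks. SE was the log2 fold change divided by the square root of F. DARs needed an adjusted p no higher than 0.05 and a 1.5-fold change. Totals per library were 8.54 to 34.6 M. Weak peaks are therefore measured less precisely. All 60 within-group pairs of libraries differed by more than sampling noise (lowest chi-square per peak 1.23). Nothing states that unstimulated and LPS cultures came from separate animals, so p-values measure the spread between these libraries. The fitting code was tested on simulated data.

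The members and lists were chosen with earlier results of these data known. Named peaks were the peak over each gene's start and, per gene, comparison and direction, the DAR with the smallest p. Of the 55, 5 were added after their values were seen (Adora3 at 105871367, 105882009 and 105918021, P2ry12 at 59239140, P2ry6 at 100951996), as were the peaks over alternative starts and the named peaks of other pathway genes. Alternatives were RLE and upper quartile scaling, no filter, DESeq2 1.42.0, a replicate block, only the groups compared, a fold of 2, windows of 5 and 50 kb, whole peaks for motifs, and each library left out. Windows of 300 bases were read from RefSeq GRCm38 with Python 3.11.15 and pysam 0.24.0. The start peak most like that of P2rx7 is not reported here.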

Additional observations from a re-analysis of the deposited data

Results flagged for a closer look

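The genotype effect differed between unstimulated and LPS-treated cells, by the interaction test in edgeR, at 14 member peaks (log2 difference, adjusted p). At P2ry6 these were -0.84 (5e-05) at 100946402, -0.63 (0.00179) at 100951996, -0.84 (0.00834) at 100990971 and -0.72 (2.25e-05) at 100991973. At Adora3 they were -1.14 (0.0042) at 105880208, -0.96 (0.00629) at 105882009 and -0.71 (0.0167) at 105918021. Nt5e had 1.39 (0.00148) at 88340916, 1.2 (0.00512) at 88350739 and -0.84 (0.00752) at 88372615. The remaining ones were P2rx4 at 122704449 with -0.81 (0.000196), P2rx7 at 122653238 with -0.72 (0.0258), Entpd1 at 40628899 with -0.64 (0.0263) and Adora2b at 62275538 with 1 (0.0492).

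In 15 of the 220 groups of 6 libraries checked over the 55 named peaks, 1 library stood apart from the rest of its group, and chance alone gives such a gap in about 1 in 20 groups. Libraries above the rest were WT unstimulated 5 at Adora2a 75303677 (1.16 CPM, next 0.486), AhR-KO LPS 5 at Adora2b 62261119 (16.9, next 13.5), WT LPS 1 at Adora2b 62275538 (1.29, next 0.965), AhR-KO LPS 6 at Entpd1 40699902 (4.18, next 3.58) and WT unstimulated 3 at P2ry12 59208034 (18.1, next 15.8). So were AhR-KO LPS 3 at Adora3 105880208 (1.81, next 1.22), AhR-KO LPS 6 at Adora3 105891253 (2.76, next 2.26), AhR-KO LPS 3 at P2rx4 122743940 (3.07, next 1.75), WT LPS 2 at P2ry6 100974335 (0.799, next 0.549) and AhR-KO LPS 3 at Nt5e 88377334 (9.62, next 7.89). Libraries below the rest were AhR-KO LPS 1 at P2ry14 59168436 (43.6, next 46.6), WT unstimulated 5 at Adora3 105871367 (1.4, next 3.13), WT LPS 3 at P2rx7 122643628 (10.4, next 12.3), WT LPS 6 at P2ry6 100950261 (12.5, next 16) and WT unstimulated 6 at P2ry6 100991973 (13.5, next 14.4).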

How the results depend on the processing

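Apart from start peaks and later additions, named peaks had the smallest p in this same fit, so their stability is partly set by that choice. Of 85 calls at named peaks, 0 reversed under any alternative run. DESeq2 and RLE size factors each ended 3, upper quartile scaling 2, no filter 1 and the fit on only the groups compared 1 of 71. Leaving out single libraries ended 7 in at least 1 of 2040 checks. The weakest was the Adora2b interaction at 62275538 (1, adjusted p 0.0492), which ended without any of 18 libraries (adjusted p 0.0509 to 0.0991) and under RLE, upper quartile, no filter and DESeq2. The P2ry6 interaction at 100951996 was -0.58 without WT LPS replicate 2. With single libraries left out, member DARs ranged from 14 to 18 lower and 17 to 22 higher for genotype without LPS, 15 to 19 and 17 to 19 with LPS, 22 to 26 and 29 to 33 for LPS in WT, 35 to 38 and 34 to 37 in AhR-KO, and 10 to 14 and 2 to 4 for the interaction. The difference in library totals ranged from 2.15 to 3.54 M for AhR-KO LPS against AhR-KO unstimulated and from -6.14 to -4.24 M for AhR-KO LPS against WT LPS.

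At a fold threshold of 2, which by construction calls fewer peaks, member counts were 9 lower and 11 higher without LPS, 6 and 3 with LPS, 3 and 25 for LPS in WT, 16 and 27 in AhR-KO, and 1 and 3 for the interaction. Over all peaks 6.7% and 3.29%, 6.83% and 4.56%, 10.9% and 18%, 11.2% and 19%, and 2.02% and 3.06% were then lower and higher, against 5.88% and 7.19%, 3.92% and 1.96%, 1.96% and 16.3%, 10.5% and 17.6%, and 0.654% and 1.96% of members. For the other pathway genes the counts were 22 and 10, 30 and 10, 34 and 46, 39 and 44, and 7 and 5 of 319 tested peaks, to be read beside the same shares over all peaks. Within 50 kb, 213 tested peaks gave 25 lower for genotype with LPS, 53 higher for LPS in WT and 19 lower for the interaction. Over all tested peaks these shares were 13.1%, 25.4% and 4.58%. Within 5 kb, 112 tested peaks gave 24 lower for LPS in AhR-KO, beside 21.5% of all peaks. The remaining counts of these windows are not given here. Searching whole peaks (median 673 bases for members, 548 for all) put the AhR core in 39.1% of members and 29.1% of all peaks. Its longer form was in 8.97% and 7.03%, AP-1 in 33.3% and 31.3%, and PU.1 in 37.8% and 31.9%. The interferon response element was in 12.2% and 10.1%, NF-kB in 12.2% and 10.3%, and C/EBP in 6.41% and 8.73%.

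Libraries with the same replicate number did not meet the rule for pairing, a correlation of deviations over 0.1 in every pair. The median was 0.0262, 0.0575, 0.261 and 0.0848 in the 4 comparisons, against 0.0108, -0.0261, -0.0699 and -0.00516 for other numbers. It was above 0.1 in 0, 2, 5 and 3 of 6 pairs, with the lowest at 0.0486 for LPS in WT, and 2, 2, 3 and 3 of 6 libraries correlated best with their own number. A replicate block gave 18 lower and 21 higher, 17 and 18, 22 and 33, 37 and 35, and 11 and 4 member DARs, and changed 0 of the 85 calls. Over all peaks the block gave 22081 and 17861, 22750 and 23682, 37763 and 44395, 37738 and 47747, and 8859 and 11037. Depth limits the weak peaks, whose SE reached 0.798 for the Adora2b interaction at 62273332.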
